A study of Oryctolagus cuniculus with 4 samples.

Results

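Genes of the extracellular matrix and of the integrins that bind it were compared between rabbit parthenotes and in vivo fertilised blastocysts. Members were the array probes whose description names a collagen type, a laminin, fibronectin 1, an integrin alpha or beta chain, a matrix metallopeptidase or a TIMP metallopeptidase inhibitor. These words picked 166 of the 43603 probes that are not controls (0.381%). The probes stand for 54 genes and 85 target sites, where overlapping probes of a transcript count as 1 site. Of the 54 genes, 6 share only the words and not the family: EGFLAM, NTN4, ITFG1, ITFG2, ITGB1BP2 and ITGBL1. They were kept, as the rule requires, and are named where their values are given.

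All embryos came from New Zealand White rabbits and were 6 days old. Parthenotes arose from ovulated oocytes activated without sperm by electrical pulses followed by cycloheximide and 6-DMAP, so that both copies of their genome are maternal, and they then grew in the reproductive tract of recipient does. Fertilised embryos were untreated and were recovered from inseminated does. RNA of 4 pools of each kind was amplified and hybridised to 4 arrays, each holding 1 parthenote pool (Cy3) and 1 fertilised pool (Cy5). The dyes were swapped on 0 arrays, so dye and group cannot be told apart. A pool of whole blastocysts mixes trophectoderm, epiblast and primitive endoderm, and fewer cells of a type cannot be told apart from less RNA per cell.

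The extracellular matrix is the protein network that cells secrete and stand on. In a basement membrane, laminin trimers and type IV collagen form linked sheets, and fibronectin is laid down as fibrils. Integrins are pairs of an alpha and a beta chain in the cell membrane, and the pairing sets which matrix protein is bound. Matrix metallopeptidases cut matrix proteins, and TIMPs block them. In the rabbit, the expanding blastocyst lies within extracellular coats until it attaches to the uterus, and integrins and matrix proteases are known for their roles at attachment.

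Each array probe is a DNA strand of 60 bases. The probes of the integrin alpha chains ITGA3 and ITGA6 are shown because both lie over the same landmark, and their genes gave 2 of the differences described next. Capitals mark the 12 bases that encode the conserved stretch just inside the membrane in integrin alpha tails.
ITGA3: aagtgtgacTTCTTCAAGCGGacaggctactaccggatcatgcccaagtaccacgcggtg
ITGA6: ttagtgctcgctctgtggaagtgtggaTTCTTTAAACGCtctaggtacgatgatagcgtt
The array annotation put the first on chromosome 19 between 37569614 and 37570630, and the second on chromosome 7 between 112216644 and 112222384. It names no genome build, and both stretches are longer than the probe, so each probe crosses an exon junction of that annotation.

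The probes of fibronectin (FN1), of the inhibitor TIMP3, of the laminin chain LAMC1 and of the integrin chain ITGB2 are shown because each of these genes was called in its class.
FN1: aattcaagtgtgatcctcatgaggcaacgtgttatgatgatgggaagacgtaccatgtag
TIMP3: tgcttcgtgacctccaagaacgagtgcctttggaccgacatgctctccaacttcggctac
LAMC1: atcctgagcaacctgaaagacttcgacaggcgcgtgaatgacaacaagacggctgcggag
ITGB2: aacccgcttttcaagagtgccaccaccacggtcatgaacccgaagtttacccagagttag
FN1 was placed on chromosome 7 between 156707103 and 156707673, and TIMP3 on chromosome 4 between 88311903 and 88311962. The annotation used here gave no position for the probes of LAMC1 and ITGB2.

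Parthenotes had more signal than fertilised embryos for fibronectin, for the integrin chains ITGB8, ITGA3, ITGB2, ITGA6, ITGAV and ITGB1, for the collagens COL5A1 and COL4A1, and for the protease inhibitor TIMP3. They had less for LAMC1, ITGB7, ITGA11 and COL23A1. The ratios of FN1, ITGA6, ITGAV, ITGB1, COL5A1 and COL4A1 turned sign under another normalisation described below, and dye and group cannot be told apart. Of the genes named here, only ITGA3 and ITGAV kept their call whichever array was left out. The increases ranged from 0.24 (ITGB1) to 1.23 (ITGB8) and the decreases from -0.19 (COL23A1) to -0.55 (LAMC1), as mean log2 ratios of parthenote over fertilised. Values are log2 ratios within an array, the error is the SD over arrays, and a gene is represented by its brightest probe.

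Of the 166 member probes, 53 passed the test (31.9%; adjusted p under 0.05 in limma, adjusted over all 43595 probes tested). Over the whole array, 20.6% of probes passed. Of the 166, 43 were called higher in parthenotes, where 9.53% of all probes tested were, and 10 were called lower, where 11.1% of all probes tested were. Several probes of a gene count here, with all 11 of FN1 and all 7 of ITGB1 among the 43. The median ratio of the members was 0.05, against 0 over all probes tested. By gene, 18 of 54 passed, 11 of them higher and 7 lower. No share over all genes of the array is given, so the gene counts here and below stand without such a comparison. By the methods' t-test, 8 of these 18 no longer passed after adjustment: FN1, LAMC1, COL5A1, COL4A1, COL12A1, ITGA6, ITGA11 and ITGB1BP2 (adjusted p from 0.0522 to 0.0923). At an unadjusted p under 0.05, 68 of the 166 probes passed (41%), close to the 36.6% of all probes tested.

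Detection differed widely between members. Of the 166 probes, 81 were detected (well above background by the scanner software's flags) in all 8 pools, and 58 were above background in no pool. Of the 81, 38 were called higher and 5 lower, or 53.1% together, against 29.5% of the array's probes detected in the same way. The 38 include all 11 probes of FN1, all 7 of ITGB1 and all 6 of ITGAV. Probes of 1 gene are not independent, so the 53.1% is not a share of genes. Of the 28 genes whose brightest probe was so detected, 10 were called higher and 4 lower. A further 14 genes had no probe above background in any pool, and a ratio of such a gene is not a measured fold.

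The sign of several increases, most of them of bright probes, rests on the dye correction. On these arrays, with the same normexp background correction, 1 median shift per array was set against a dye correction that follows brightness (loess). The median of all 11193 bright probes (mean log2 intensity of at least 9) was -0.01 with loess and -0.64 with the median shift. The 33 bright member probes had medians of 0.33 and -0.32, and 30 and 31 of the 33 lay above the median of the bright probes. These probes are not separate genes, since all 11 probes of FN1 and all 7 of ITGB1 are among them. Values under this setting are given below as "median centring" beside each gene above background in at least 1 pool whose sign it turned among those called or named by rule, and were not read for the other genes.

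**Figure D1:**
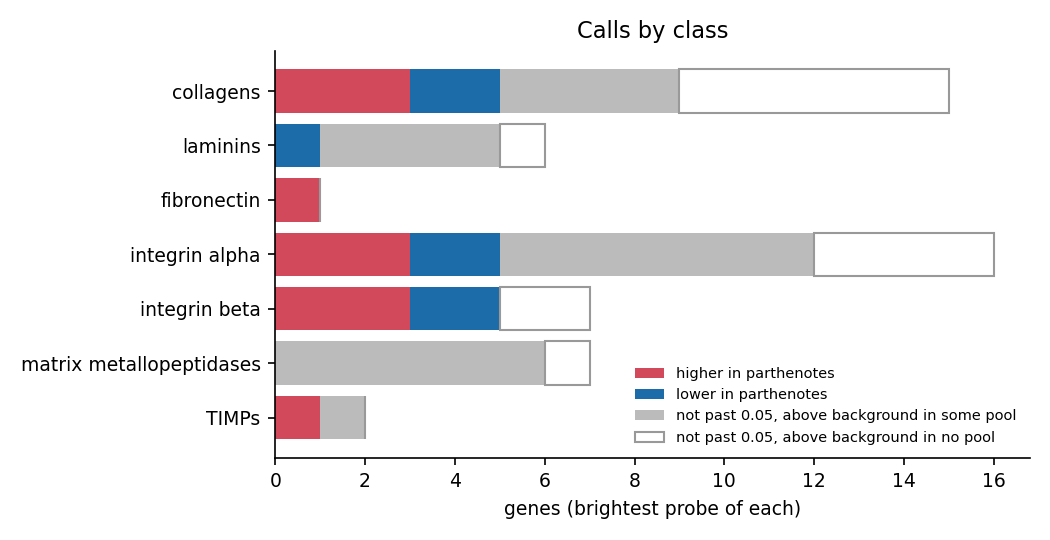
Number of genes in each class (horizontal axis) that were called higher or lower in parthenotes, or not past an adjusted p of 0.05, each gene by its brightest probe. Integrin beta has 5 of 7 genes called and the matrix metallopeptidases 0 of 7, and the collagens include the most genes above background in no pool.

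Fibronectin, encoded by FN1, is an adhesive glycoprotein that many integrins bind. All 11 of its probes, which lie over 2 sites of the transcript, were called higher, with ratios between 0.54 and 0.79. The brightest probe had log2 intensities of 13.77, 13.84 and 14.01 in parthenote pools 1 to 3 and of 13.37, 13.24 and 13.36 in the fertilised pools of the same arrays. The spot of array 4 was marked as an outlier and left out. With that spot kept, the ratio was 0.78 and the adjusted p of 0.0986 did not pass, and by the methods' t-test the adjusted p was 0.0923. The ranges of the groups did not overlap, and the ratio was 0.55 ± 0.14 (SD, n = 3 arrays), or 1.46-fold, with an adjusted p of 0.0458, turning to -0.18 with median centring. A neighbouring probe measured on all 4 arrays gave 0.77 ± 0.15 (adjusted p = 0.0148). The mean of all FN1 probes was 0.65 (adjusted p = 0.02). These probes share a transcript and partly a sequence, so they are not independent measurements. Without array 2 or without array 3, 0 of the 11 probes kept an adjusted p under 0.05, and without array 1 and without array 4 the numbers were 5 and 1.

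The integrin alpha chains held 16 genes by 39 probes. Of the genes, 3 rose, 2 fell and 11 did not pass the test. ITGA3 pairs with ITGB1 in a receptor for laminins. Its log2 intensity was 8.08, 8.43, 8.37 and 8.07 in the parthenote pools and 7.15, 7.36, 7.33 and 7.05 in the fertilised pools. Every parthenote pool lay above every fertilised pool, and the ratio of 1.01 ± 0.06 (SD, n = 4), a 2.02-fold difference, had the lowest adjusted p of the 54 genes (0.00429). The call held without any one array (adjusted p up to 0.0373). With normexp and loess the ratio was 0.62.

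ITGAV is the alpha chain of the receptors that bind fibronectin and vitronectin. Its 6 probes, over 2 sites, were all called higher, with ratios from 0.31 to 0.61. The brightest had log2 intensities of 8.28, 8.20, 7.98 and 8.15 in parthenotes and 8.001, 7.87, 7.71 and 7.81 in fertilised embryos. The lowest parthenote pool was below the highest fertilised pool, while the ratio within each array was close to the mean of 0.31 ± 0.03 (adjusted p = 0.00731, or up to 0.0474 without 1 array), falling to 0.20 with normexp and loess and turning to -0.16 with median centring. ITGA6, which forms laminin receptors with ITGB1 or ITGB4, had log2 intensities between 12.88 and 13.16 in parthenotes and between 12.58 and 12.78 in fertilised embryos. Its ratio was 0.34 ± 0.13 (adjusted p = 0.0421), turning to -0.39 with median centring, and 3 of its 7 probes were called, with all 7 between 0.22 and 0.42. Without array 2, 3 or 4 its brightest probe was no longer called (adjusted p up to 0.163).

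Of the alpha chains that bind collagens, ITGA11 was lower in parthenotes, and ITGA10 was called lower by 1 of its 5 probes. ITGA11 had log2 intensities of 5.61, 5.69, 5.66 and 5.18 in parthenotes and 5.94, 5.94, 6.11 and 5.38 in fertilised embryos, and the ratio of -0.30 ± 0.11 (adjusted p = 0.0386) was lost without any one array (adjusted p up to 0.123). With normexp background correction and loess the ratio was -0.07. That probe of ITGA10 was above background in 1 of the 8 pools, a fertilised one. Its call (adjusted p = 0.0074) thus gives neither a measured fold nor a bound. The ratio of that probe, -0.27, turned to 0.14 with median centring. The other 4 probes of the same site, above background in no pool, gave -0.65, -0.19, 0.02 and 0. ITGA1, also a collagen receptor chain, had a ratio of 0.23 ± 0.31 and did not pass (adjusted p = 0.365). ITGA5, the chain of the main fibronectin receptor, had 2 probes that disagreed: the brighter gave 0.04 (adjusted p = 0.234) and the other 0.46 (adjusted p = 0.00858).

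The remaining alpha chains did not pass the test. ITGAE, which with ITGB7 binds E-cadherin, had a ratio of -0.14 (adjusted p = 0.175), ITGA9 of -0.08 (adjusted p = 0.708) and ITGA4 of -0.79 in pools that were all below background. Of the leukocyte chains, ITGAM was above background in every pool with a ratio of -0.02 (adjusted p = 0.956), and ITGAL and ITGAX were above background in none. ITGA8 was not above background either. ITFG1 and ITFG2, which match only by words, had ratios of 0.03 and -0.40 and were not called.

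**Figure D2:**
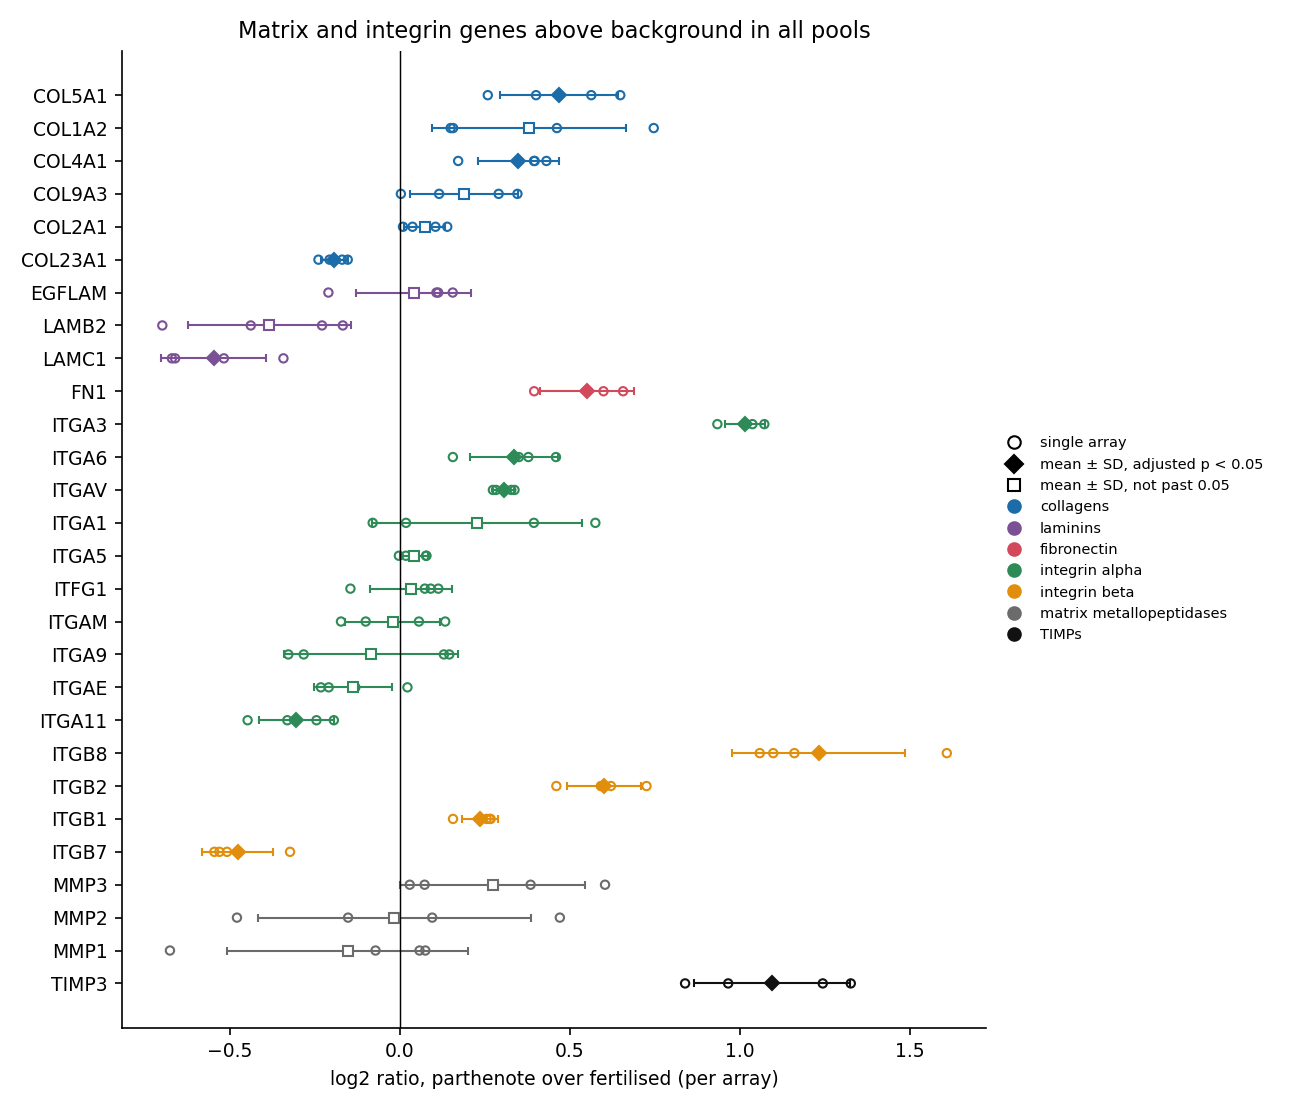
Log2 ratio of parthenote over fertilised on each of the 4 arrays (open circles) with the mean and SD, for the 28 genes whose brightest probe was above background in all pools, coloured by class. Diamonds mark an adjusted p under 0.05: the 3 largest means are those of ITGB8 (1.23), TIMP3 (1.09) and ITGA3 (1.01), and the lowest is that of LAMC1 (-0.55).

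The integrin beta chains held 7 genes by 25 probes. Of the genes, 3 rose and 2 fell, ITGB6 did not pass (0.49, adjusted p = 0.0653, at a brightest probe above background in no pool, while another of its 4 probes was above it in 1 pool of each group) and ITGBL1 was not detected. ITGB8 pairs with ITGAV in a receptor that activates latent TGF-beta. Its log2 intensity was 8.37, 7.85, 8.13 and 8.13 in parthenotes and 6.76, 6.75, 6.97 and 7.07 in fertilised embryos. The groups did not overlap, and the ratio of 1.23 ± 0.25 (adjusted p = 0.0159), or 2.35-fold, was the largest of the 28 genes detected in all pools. All 3 ITGB8 probes, over 3 separate sites, were called, between 1.13 and 1.23. The brightest lost its call without array 2, 3 or 4 (adjusted p up to 0.0796), with the ratio between 1.11 and 1.29, and gave 0.79 with normexp and loess.

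ITGB2, the beta chain of leukocyte integrins, had log2 intensities of 8.79, 8.69, 9.05 and 8.99 in parthenotes and 8.33, 8.07, 8.32 and 8.40 in fertilised embryos. Again the groups did not overlap, and the ratio was 0.60 ± 0.11, or 1.51-fold (adjusted p = 0.0136, or up to 0.0816 without array 2 or array 4). With median centring it was 0.01. ITGB1, the common partner of many alpha chains, was called by all 7 of its probes, with ratios from 0.17 to 0.43. Of these, 5 are shifted by 1 base from one to the next and count as 1 site. Its brightest probe gave 14.70, 14.69, 14.73 and 14.59 in parthenotes and 14.54, 14.42, 14.48 and 14.32 in fertilised embryos, with no overlap, and a ratio of 0.24 ± 0.05 (adjusted p = 0.0183, or up to 0.0951 without array 2, 3 or 4), turning to -0.60 with median centring.

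ITGB7, the chain that pairs with ITGA4 or ITGAE, went the other way. Its log2 intensity was 5.46, 5.62, 5.34 and 5.27 in parthenotes and 5.97, 5.94, 5.87 and 5.81 in fertilised embryos, so that every parthenote pool lay below every fertilised pool. The ratio was -0.48 ± 0.10, or 1.39-fold lower (adjusted p = 0.0172, or up to 0.0899 without array 1, 3 or 4). With normexp and loess it was -0.15. ITGB1BP2, a muscle protein that binds the ITGB1 tail and is no integrin chain, had 4.66, 4.71, 4.15 and 3.79 in parthenotes, with 2 pools above background, and 5.54, 5.58, 5.46 and 5.42 in fertilised embryos, with 4 above. Its ratio of -1.18 ± 0.37 (adjusted p = 0.0297, or up to 0.117 without any one array) came from the brightest of 5 probes of 1 site, 2 of which were called. The other 4 gave ratios from -0.20 to -0.78, and with normexp and loess the brightest gave -0.27.

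**Figure D3:**
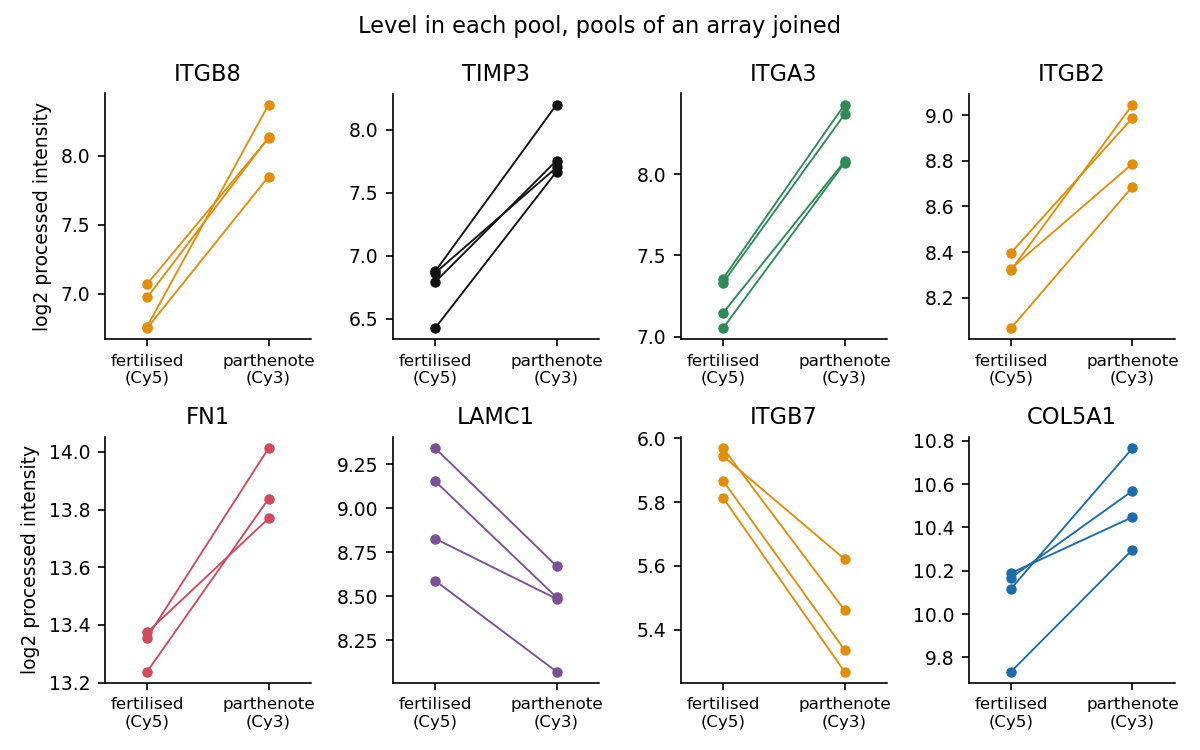
Log2 processed intensity (vertical axes, each with its own range) of the 8 genes with the largest absolute ratio among those called and above background in all pools; a line joins the 2 pools of an array. LAMC1 and ITGB7 fall on every array and the other 6 genes rise on every array measured, with 3 arrays for FN1.

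Laminins were represented by 15 probes of 6 genes, of which 4 are laminin chains. LAMC1, the gamma chain of most laminin trimers, had log2 intensities of 8.07, 8.49, 8.67 and 8.49 in parthenotes and 8.59, 8.83, 9.34 and 9.15 in fertilised embryos. The ranges overlapped, but the parthenote pool was lower on every array, and the ratio was -0.55 ± 0.15, or 1.46-fold lower (adjusted p = 0.0253). The call was lost without array 1, 3 or 4 (adjusted p up to 0.111). The unpaired fit gave an adjusted p of 0.0555 and the methods' t-test one of 0.0522. LAMB2, a beta chain, gave -0.38 ± 0.24 (adjusted p = 0.104) at its brighter probe and -0.28 (adjusted p = 0.0394) at the other. The array describes these LAMB2 probes as laminin gamma 1, and the gene name was taken from the RefSeq accession. The alpha chains LAMA3 (0.70, adjusted p = 0.279) and LAMA2 (1.25, adjusted p = 0.0652) were above background in 2 of the 8 pools and in none. EGFLAM, a matrix protein with laminin-like domains, had a ratio of 0.04 (adjusted p = 0.819).

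NTN4, a secreted netrin related to laminins that the array calls laminin B1-like, gave the only member probe above background in all pools of 1 group and in none of the other. That probe is shown because it and 4 neighbours start at successive bases of the transcript.
NTN4: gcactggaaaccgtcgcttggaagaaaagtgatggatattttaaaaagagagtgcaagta
It was placed on chromosome 4 from 74878707 to 74878764. Its ratio was 3.19 ± 0.51 (adjusted p = 0.0115). Since the fertilised pools were not well above background, the level was at least 1.53-fold higher in parthenotes, counted from the lowest signal of detected probes after both channels were set to 1 distribution. The brightest of the 5 overlapping probes gave 2.62 ± 1.12 and did not pass (adjusted p = 0.0503, or 0.051 to 0.166 without 1 array), with log2 intensities of 4.06, 4.70, 5.60 and 5.16 in parthenotes, 3 of them above background, and 2.88, 1.30, 3.29 and 1.56 in fertilised embryos. The other 4 were called, from 2.54 to 3.19. With normexp and loess the brightest gave 0.46 (adjusted p = 0.0664), and with median centring 0.59.

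Collagens were the largest class, with 52 probes of 15 genes, and 32 of these probes rose above background in no pool. By gene, 3 were called higher, 2 lower and 10 did not pass, and over probes the median ratio was 0.09 (0 without array 1, and up to 0.36 under the other settings). COL5A1, a chain of a fibril-regulating collagen, had log2 intensities of 10.77, 10.57, 10.45 and 10.30 in parthenotes and 10.12, 10.17, 10.19 and 9.73 in fertilised embryos. The groups did not overlap, and the ratio was 0.47 ± 0.17, or 1.38-fold (adjusted p = 0.0396, or up to 0.155 without any one array), turning to -0.11 with median centring. All 3 COL5A1 probes, over 2 sites, were called at nearly the same ratio (0.47 to 0.48).

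COL4A1, a chain of the basement membrane collagen, had 9.86, 10.09, 9.99 and 9.81 in parthenotes and 9.69, 9.66, 9.59 and 9.41 in fertilised embryos. The groups did not overlap, and the ratio was 0.35 ± 0.12, or 1.27-fold (adjusted p = 0.0347, or up to 0.146 without array 2, 3 or 4), turning to -0.24 with median centring. COL23A1, a membrane-bound collagen, was lower, with 5.44, 5.41, 5.42 and 5.22 in parthenotes and 5.61, 5.62, 5.66 and 5.37 in fertilised embryos. The ranges of the groups overlapped, and the paired ratio of -0.19 ± 0.04 (adjusted p = 0.0157) was lost without any one array (adjusted p up to 0.0781), without pairing (adjusted p = 0.134) and with normexp and loess (-0.03, adjusted p = 0.615).

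The other collagens showed no called difference in a detected gene. COL2A1, a fibrillar collagen known from cartilage, had log2 intensities of 11.26, 11.35, 11.14 and 11.14 in parthenotes and 11.23, 11.22, 11.13 and 11.03 in fertilised embryos. Its ratio was 0.07 ± 0.06 (adjusted p = 0.173), or -0.55 with median centring, and 0 of its 6 probes were called. COL1A2, a chain of the main fibrillar collagen, had a ratio of 0.38 ± 0.29 (adjusted p = 0.145), with 11 probes between 0.08 and 0.60, of which 0 were called. COL9A3 had a ratio of 0.19 ± 0.16 (adjusted p = 0.175). COL8A1 and COL12A1 passed the test (adjusted p = 0.0142 and 0.0317), but neither was above background in any pool, so no fold is given, and the sign of COL12A1, lower as called, turned with median centring. The call of COL12A1 was lost without any one array (adjusted p up to 0.126), and that of COL8A1 without array 1, 3 or 4 (up to 0.07). COL6A6 was above background in 1 pool of each group. COL10A1, COL14A1, COL22A1, COL4A3, COL5A3 and COL6A5 were above background in no pool by their brightest probe and were not called.

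**Figure D4:**
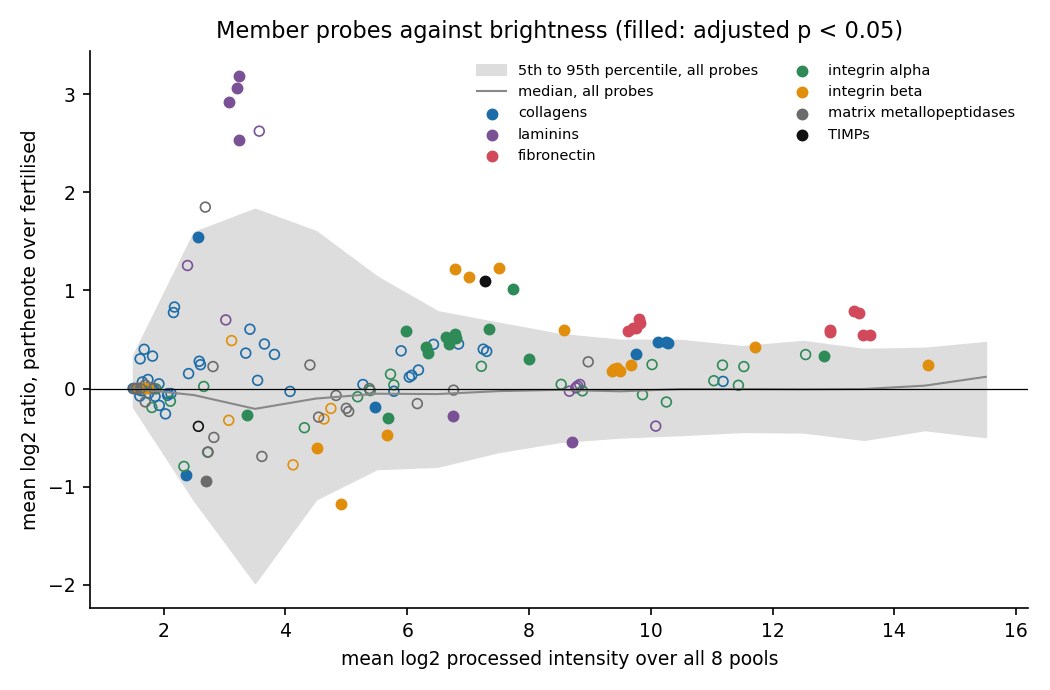
Mean log2 ratio of each of the 166 member probes (vertical axis) against its mean log2 intensity over the 8 pools (horizontal axis), coloured by class, filled where the adjusted p is under 0.05. The grey band holds the ratios of all probes of like brightness from the 5th to the 95th percentile: 24 member probes of 8 genes lie above it and 3 of 3 genes below.

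Enzymes that cut the matrix and their inhibitors differed in detection. Of the 7 metallopeptidase genes, 0 passed the test in limma by their brightest probe, 1 had an unadjusted p under 0.05 and 0 passed the methods' t-test. MMP3, stromelysin, had log2 intensities of 8.94, 9.33, 8.92 and 9.25 in parthenotes and 8.91, 8.94, 8.84 and 8.65 in fertilised embryos, and its ratio was 0.27 ± 0.27 (adjusted p = 0.235), or -0.25 with median centring. Only 1 of the 3 MMP3 probes was above background in all pools. The gelatinases MMP2 and MMP9 gave ratios of -0.02 ± 0.40 (adjusted p = 1) and 0.24 ± 0.79 (adjusted p = 0.74), with arrays on both sides of 0. The collagenase MMP1 gave -0.15 (adjusted p = 0.583). MMP12, an elastase of macrophages, was above background in 1 parthenote pool and no fertilised pool (adjusted p = 0.134), the brightest probe of the membrane-bound MMP14 in 1 pool of each group (adjusted p = 0.161), and MMP13 in none. A dim probe of MMP14 was the only metallopeptidase probe called (adjusted p = 0.0475, lower). That probe was above background in 2 fertilised pools and 0 parthenote pools, so no fold or bound is given.

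TIMP3, the inhibitor that stays bound to the matrix, was higher in parthenotes. Its log2 intensity was 7.76, 7.67, 8.20 and 7.70 in parthenotes and 6.79, 6.42, 6.87 and 6.86 in fertilised embryos. The groups did not overlap, and the ratio was 1.09 ± 0.23, or 2.13-fold (adjusted p = 0.0162, or up to 0.0761 without any one array). With normexp and loess it was 0.65, and with median centring 0.37. TIMP4 was above background in 1 of the 8 pools and had a ratio of -0.39 ± 0.39 (adjusted p = 0.244), or 0.21 with median centring.

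**Figure D5:**
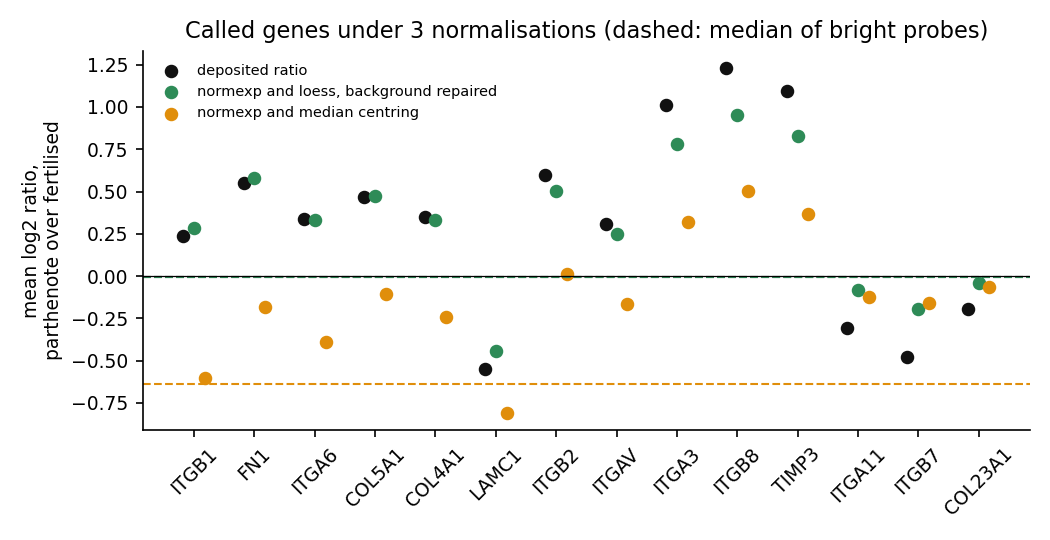
Mean log2 ratio of parthenote over fertilised (vertical axis) for the 14 genes called and above background in all pools, from the deposited ratios and under 2 other normalisations, ordered by brightness from left to right. Dashed lines mark the median of the 11193 bright probes: with median centring it sits at -0.64, and ITGB1, FN1, ITGA6, COL5A1, COL4A1 and ITGAV fall below 0.

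Other chains of the same families are on the array under descriptions that the words of the rule missed. These 31 genes, named by symbol after the descriptions had been seen, were read as a complement. By brightest probe, 6 passed (19.4%, against 20.6% of all probes on the array), 2 higher and 4 lower, and the median of the 31 was -0.02. MMP7, matrilysin, was above background in 3 parthenote pools and in no fertilised pool (log2 intensities of 3.63, 4.38, 5.49 and 4.58 against 1.32 to 1.56, adjusted p = 0.0231). The bound of 1.36-fold higher also averages in a parthenote pool not above background, and 1 of the 5 MMP7 probes was called. ITGB3, which pairs with ITGAV, had log2 intensities of 7.91, 8.44, 8.42 and 8.21 in parthenotes and 7.59, 7.54, 7.56 and 7.48 in fertilised embryos, a ratio of 0.70 ± 0.26 (adjusted p = 0.0403, and 0.44 with normexp and loess). Its 5 probes gave ratios from 0.28 to 1.88, and 4 of them were called. COL7A1, of anchoring fibrils, was lower, at -0.71 ± 0.19 (adjusted p = 0.0235), and COL5A2 at -0.46 ± 0.17 (adjusted p = 0.038), or -0.46 and -0.16 with normexp and loess. MMP11 and MMP16 were called lower at -0.62 and -0.41, and their signs turned with median centring (0.04 and 0.02). COL4A2, the partner chain of COL4A1, had a ratio of 0.21 ± 0.13 and did not pass (adjusted p = 0.0932), nor did ITGB4 (-0.04), ITGA2 (0.79, adjusted p = 0.203) or TIMP1 (0.23).

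Genes that work with the matrix were read in 5 lists of 81 genes, of which 58 were on the array under their names. Of the 58, 12 were called higher and 2 lower (24.1% together, against 20.6% of all probes on the array), with a median of 0.13. By the methods' t-test, 0 of the glycoproteins and of the proteoglycans, 1 of the other proteases and inhibitors and 2 of the collagen-processing enzymes passed, and SPP1, CD44, GPC3, PLAU, CTSK and PLOD1 did not (adjusted p from 0.0516 to 0.083). Among the 14 other proteases and inhibitors, 6 were higher, including RECK, which was above background in no pool. PLAU, urokinase, had log2 intensities of 7.08, 7.17, 5.77 and 6.62 in parthenotes and 4.31, 4.26, 4.67 and 3.94 in fertilised embryos, a ratio of 2.36 ± 0.85 (adjusted p = 0.0374), or 0.81 with normexp and loess. CTSK, a collagen-degrading cathepsin, was higher at 1.02 ± 0.28 (adjusted p = 0.0249), or 0.67 with normexp and loess. CTSB and BSG were also called higher, at 0.62 and 0.36, or -0.02 and -0.48 with median centring.

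Among the 8 proteoglycan genes, CD44, the hyaluronan receptor, was higher at 1.52 ± 0.52 (adjusted p = 0.0345), or 0.67 with normexp and loess, and SDC4 at 0.29 (-0.23 with median centring), and the glypican GPC3 was lower at -0.62 ± 0.25 (adjusted p = 0.047). Among the 11 glycoproteins, 1 passed. This was SPP1, osteopontin, an integrin ligand, with log2 intensities of 7.999, 8.58, 7.89 and 8.12 in parthenotes and 4.65, 4.22, 4.12 and 1.39 in fertilised embryos, where 3 pools were above background. Its ratio was 4.55 ± 1.51 (adjusted p = 0.0328), or 1.83 with normexp and loess. On array 4 (6.73) the fertilised pool was not above background, so that value is no measured fold, and the other 3 arrays gave 3.35 to 4.36. Of the 12 collagen-processing enzymes, PLOD2 (0.67), LOXL2 (0.66) and P4HB (0.26) were higher, at 0.01, 0.13 and -0.38 with median centring, and PLOD1 was lower (-0.21 ± 0.08, adjusted p = 0.0435). Of the 13 integrin adaptors, 0 passed in limma, 4 had an unadjusted p under 0.05, where 36.6% of all probes did, and 0 passed the methods' t-test, and ILK (0.41) and VCL (0.40) lay just outside the threshold (adjusted p = 0.0538 and 0.0511). Without 1 array, the calls of SPP1 and PLOD1 were lost whichever was left out (adjusted p up to 0.125 and 0.151), that of CD44 and CTSK without array 2, 3 or 4 (up to 0.129 and 0.115), and those of PLAU and GPC3 without array 1, 2 or 4 (up to 0.153 and 0.143).

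Markers of cells outside the embryo moved in the same arrays. Of the secretory epithelium list, all 3 genes on the array were higher in parthenotes, led by OVGP1, an oviduct glycoprotein, at 3.87 ± 0.29, and the summed intensity of the list was 7191, 5918, 26113 and 13542 in parthenotes against 989.9, 697, 2286 and 965 in fertilised embryos. Of 5 genes of ciliated cells, 2 were higher, with sums of 396, 192, 436 and 315 against 181, 112, 106 and 116, SPAG6 the most abundant (1.08, not called), and FOXJ1 above background in no pool. Of 6 leukocyte genes, CD48, CD14 and LCP1 were higher and CD14 was the most abundant (0.92, or 0.54 with normexp and loess). Their sums were 369, 393, 459.5 and 390.2 in parthenotes and 206, 194, 197 and 188 in fertilised embryos, and PTPRC and CD3E were above background in no pool.

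Of 7 stroma genes, TAGLN, the most abundant, was higher (0.66, or -0.02 with median centring), and ACTA2, MYH11 and PDGFRB were above background in no pool. The sums of that list were 4812, 3494, 4461 and 3659.9 against 2498, 2200, 3065 and 2693. Of 5 endothelial genes, 0 passed in limma, 1 had an unadjusted p under 0.05 and 0 passed the methods' t-test. VWF was the most abundant of them (-0.35), KDR and GP1BA were above background in no pool, and the sums were 740.4, 2657, 2382 and 2005 against 2412, 2311, 1979.8 and 2076. Of 3 erythroid genes, ALAS2, the most abundant, was higher (1.94, or 1.03 with normexp and loess) and EPB42 was above background in no pool. SLC4A1, above background in 1 fertilised pool only, was not called and lay below 0 on every array (-0.38). The sums of the erythroid list were 243, 179, 243 and 189 against 56, 74, 91 and 60. SPP1, CD44, ITGB2, TIMP3 and MMP7 are also expressed by such cells, and the part of these cells in the results on the matrix and integrins was not tested.

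Markers of the embryo's own layers were detected, with the most abundant gene of each layer above background in every pool. In trophectoderm, KRT8, the most abundant, was higher (0.58, or -0.21 with median centring) and GATA2 lower (-0.64), and ELF5 was above background in no pool. KRT19 (-0.37), TFAP2C (-0.31) and TFAP2A (-0.26) lay below 0 on every array and GATA3 had a ratio of 0.12, none of them called. The median of the 7 trophectoderm genes was -0.26. The summed intensity was 29372, 42834, 40464 and 34250 in parthenotes and 31431, 33216, 32289 and 29472 in fertilised embryos. In epiblast, POU5F1 was higher (0.21, or -0.52 with median centring) and DNMT3B lower (-0.25), with sums of 15941, 13331, 13905 and 12884 against 12975, 12223, 12769 and 11690. In primitive endoderm, AFP was lower (-2.31, or -0.34 with normexp and loess). It was above background in 4 fertilised pools and 0 parthenote pools, so that ratio is no measured fold. DAB2 was the most abundant (-0.37, not called). Together with APOA1 (-0.75, adjusted p = 0.195, from -1.58 to -0.07 over arrays) it made up most of the summed intensity. GATA4 (-0.34) and TTR (-0.29) were not called either. The sums were 1419, 2370, 1569 and 1552 against 2628, 2839, 2638 and 1811, so every parthenote sum was below that of the fertilised pool on its array. LAMC1, COL4A1 and FN1 are made by this layer among others, and the part of its size in their values was not tested.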

How the data were processed

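The 4 arrays were Agilent 2-colour rabbit arrays on 1 slide. Per the file headers, the authors extracted them with Feature Extraction 10.10.1.1. The deposited mean intensity and local background intensity were left unnormalised by the authors, while the deposited processed intensity is background-subtracted and dye-normalised by the authors. The deposited log10 ratio is that of processed Cy5 over Cy3, or 0 where both are surrogates for dim spots. The value table that the authors deposited for the series holds these log10 ratios with the opposite sign. Its scale and direction were thus settled, and every column median is 0. The number of columns of other samples left out was 0.

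Ratios were put on the log2 scale with the parthenote as numerator. Between 26 and 48 of the 43803 spots per array were marked as non-uniform or population outliers and removed, replicate spots were averaged, and probes with values on at least 3 arrays were fitted with limma 3.58.1 (lmFit, eBayes) in R 4.3.3, with Benjamini-Hochberg adjustment at 0.05. The software marked 25805 to 26339 spots per array as detected for parthenotes and 27508 to 27835 for fertilised embryos. The pools are separate pools of embryos per the study's methods. Precision is limited by the number of arrays. The pools of an array are paired by it. Deviations from group means correlated by 0.60 to 0.65 within an array and by -0.21 across arrays. Bounds for undetected probes used channel intensities after loess and Aquantile.

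In a test on simulated data with the spread of this comparison, 6 of 50 probes changed 1.5-fold, 15 of 50 changed 2-fold, 27 of 50 changed 3-fold and 33 of 50 changed 5-fold were recovered, with 3 false calls among 43327 unchanged probes.

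Symbols were given to 23335 probes, 13115 of them by RefSeq accession and 9321 by gene identifier, from a RefSeq table (assembly mOryCun1.1) used for names only. Other probes stay unnamed here, and 1 gene of the related lists is not reported here. Members, lists and tests were chosen with earlier results of these data known. Values were printed, by rule, for the genes of each class called with 1 sign on every array (at most 6 in each direction), for the gene with the highest signal in each class, for every fibronectin and TIMP gene, for member probes detected in all pools of 1 group only, for the 4 most changed related genes in each direction and for the most abundant marker of each cell list. The remaining members are accounted for by class, and the other genes named were picked after their values were seen. Python 3.11.15, pandas 2.3.3, numpy 2.4.6 and matplotlib 3.10.9 were used for summaries and plots.

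Alternatives were normexp (offset 50) with loess, the same after repair of the local background of spots lying over 100 units below it (15 on array 2 and 2 on array 4 over both channels), normexp with median centring, the ratio of processed intensities, the value table, filters on detection in 1 or both channels, marked spots kept, the methods' t-test, an unpaired fit, an intensity trend with robust estimation, averaging a gene's probes, and each replicate left out.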

Additional observations from a re-analysis of the deposited data

Results flagged for a closer look

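On 1 array of the 4, the value of 7 series lay far from the other 3, out of 37 series tested, where chance would give about 1 in 20. Array 1 gave the lowest ratio of COL4A1 (0.17, the others between 0.39 and 0.43), of ITGB1 (0.16, the others between 0.25 and 0.27) and of CTSK (0.60, the others between 1.16 and 1.18). Array 2 gave the ratio of ITGB7 that was nearest to 0 (-0.32, the others between -0.55 and -0.51). Array 3 stood apart for GPC3 (-0.996, the others between -0.52 and -0.46) and for PLAU (1.1005, the others between 2.68 and 2.91). In each of these 6 genes the array that stood apart had the same sign as the other 3. The median ratio of the collagen probes was 0.11 on array 1 and 0 on each of the other arrays. Each result without 1 array stands in the report or with the effects of the processing.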

How the results depend on the processing

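With other settings the counts moved, and the directions of named genes turned only with median centring. The value table, the detection filters, the methods' t-test and the trend fit use the same deposited ratios. A kept direction under these was therefore fixed in advance. Of 449 values of 29 named genes under other settings, 316 kept their direction and side of the threshold, 111 lost it, 11 newly passed and 11 turned sign, all 11 of these with median centring: TIMP4 0.21, COL5A1 -0.11, COL4A1 -0.24, COL2A1 -0.55, COL12A1 0.21, FN1 -0.18, ITGA6 -0.39, ITGAV -0.16, ITGA10 0.14, ITGB1 -0.60 and MMP3 -0.25. Against 53 member probes called (43 higher, 10 lower), normexp with loess called 31 (28 and 3), median centring 97 (67 and 30), the ratio of processed intensities 90 (78 higher) and the methods' t-test 24 (21 and 3), and the filter on both channels left 6 lower. Over all probes, these settings called 6512, 31610, 21399 and 4435 in place of 8996, and the filter on both channels 10395 of 24136, with 46.2% of calls higher in the main fit and 65% with processed intensities. Against 18 genes called, median centring called 31 and the t-test 10. By class, normexp with loess called 4 collagen probes in place of 7, 2 laminin probes in place of 6, 5 integrin alpha probes in place of 13, 8 integrin beta probes in place of 14 and 0 metallopeptidase probes in place of 1. Median centring called 33 collagen, 15 laminin, 0 fibronectin (in place of 11), 21 integrin alpha and 9 metallopeptidase probes. The t-test called 2, 2, 6, 6, 7 and 0 probes of collagens, laminins, fibronectin, integrin alpha, integrin beta and metallopeptidases. Processed intensities called 20 collagen and 9 metallopeptidase probes, the repaired background 2 metallopeptidase probes, the trend 8 integrin alpha and 0 metallopeptidase probes, and the filters on 1 and both channels 0 metallopeptidase probes, with 3 laminin probes left by the latter. The median over member probes, 0.05, became 0.10 with median centring, 0.29 with processed intensities, 0.23 and 0.24 with the filters on 1 and both channels, where the medians of all probes tested were 0.00, 0.08, -0.03 and -0.02. The cause was not tested, except that the filters test fewer probes. Without the pairing (no replicate block), 16 collagen and 5 metallopeptidase probes were called and the median was 0.29, against 0.08 over all probes, of which 16358 were called, 68% of them higher.

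Without 1 replicate, 6 to 26 member probes were called (5 to 24 higher, 1 to 3 lower) and 3 to 10 genes, as over the whole array, where 1239 to 5736 probes were called. The fewest were called without replicate 4 (6 probes and 3 genes), then without replicate 3 (7 and 4), replicate 2 (9 and 6) and replicate 1 (26 and 10). By class the numbers were 0 to 1 for collagens, 0 to 4 for laminins, 0 to 5 for fibronectin, 4 to 9 for integrin alpha, 1 to 7 for integrin beta, 0 to 1 for metallopeptidases and 0 for TIMPs, and the median was 0.0457 to 0.0873. ITGA3, ITGAV and ITGA10 were called in each such fit. FN1 at its brightest probe had a value only without replicate 4 (adjusted p = 0.0893).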
